A study of Homo sapiens with 40 samples.

Results

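A2058, an established human melanoma cell line, was treated with GDC0941 at the level its labels name max, and its gene expression was compared with that of cells given the solvent DMSO. The comparison holds 8 of the 40 arrays of the series, 4 for GDC0941 max and 4 for DMSO, chosen by the compound and level in the sample titles, where the compound is spelled GCD0941. GDC0941 (pictilisib) is an inhibitor of the class I phosphoinositide 3-kinases (PI3K). Both groups were grown in high-glucose DMEM with serum, pyruvate and glutamine, treated once, and taken for total RNA after 24 hours. The labels name 4 biological replicates per group, so p-values speak of the variation among cultures of 1 line. The sources used here give no molar concentration for max, or for the lower levels named IC50 and IC90. The other arrays hold those lower levels and 2 further PI3K inhibitors, BKM120 and BEZ235, each 4 arrays per level, and they enter the fit that estimates the spread.

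PI3K is a lipid kinase that growth factor receptors switch on, and its product recruits the kinase AKT to the membrane. Active AKT keeps the FOXO transcription factors out of the nucleus and feeds the kinase complex mTORC1, which promotes protein, nucleotide and sterol synthesis and restrains autophagy and the lysosomal transcription factors TFEB and TFE3. In melanocytic cells the related factor MITF drives the pigment genes, and inhibition of PI3K is known to raise receptor genes that AKT signalling otherwise holds down.

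Expression was measured as the array signal of 1 probe set per gene, and a difference is given as log2 of GDC0941 max over DMSO on the scale log2(signal + 16), which understates the change of dim genes. Of the 11865 genes tested, 5204 (43.9%) differed at an adjusted p under 0.05 (limma, Benjamini-Hochberg), 3022 of them (25.5%) higher and 2182 (18.4%) lower. Only 202 genes (1.7%) differed by at least 2-fold, 132 (1.11%) upward and 70 (0.59%) downward, so most differences were small. The median difference over all genes was 0.03, with 5% of genes below -0.50 and 5% above 0.63. In 5008 genes (42.2%) the 4 values of one group lay beyond the 4 of the other. Every list of genes below is to be read against these shares, and its "measured" members are those tested.

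Measures of array quality lay close in the groups. The 3-prime to 5-prime signal ratio of the ACTB control averaged 1.82 in DMSO and 1.92 with GDC0941 (2-sided exact permutation p = 0.429, adjusted p = 0.486 over 4 measures, the smallest p that 70 arrangements allow being 0.0286), and the median signal of an array averaged 13.2 and 13.8 (exact permutation p = 0.457). The first principal component of the 8 arrays held 70% of the variance and separated the groups, and the second, with 10.3%, put GDC0941 replicate 3 at one end and replicate 2 of both groups at the other. All 6 melanocytic markers measured, MITF, SOX10, PMEL, MLANA, TYR and TYRP1, were expressed. Their summed signal ran from 5108 to 5274 in DMSO and from 7557 to 8213 with GDC0941. Of 23 markers of leukocytes, endothelium, fibroblasts, epithelium, red cells and hepatocytes on the array, 16 were under a signal of 16 in every DMSO array. The sum of all 23 ran from 1452 to 1706 in DMSO and from 1325 to 1591 with GDC0941. Most of it came from the fibroblast marker LUM, at 1098.8 to 1309.7 in DMSO and 1014.8 to 1252.8 with GDC0941. The myeloid marker LYZ read 173.0 to 217.8 and 145.5 to 199.9. Among dimmer markers the median of DCN went from 15.5 to 27.6 and that of PECAM1 from 17.2 to 11.1. All these arrays are of the line A2058, so the cell type names label genes and do not count cells of other tissues. In bulk RNA scaled to a common array mean, fewer cells expressing a gene and less of its RNA per cell cannot be told apart.

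The 20 largest rises began with BMF. This gene, which encodes a BH3-only protein that neutralises survival proteins of the BCL2 family, gave signals of 8.20, 14.3, 16.2 and 10.7 in the DMSO arrays and 126, 105, 112 and 116 with GDC0941. Its difference was 2.21 (SE 0.12, 95% interval 1.96 to 2.46, adjusted p = 4.1e-17, limma), from a level at the edge of detection to a clear signal. CTSF, a lysosomal cysteine protease gene, went from 45.3, 41.8, 54.5 and 58.4 to 299, 279, 239 and 266, a rise of 2.12. KLHL24, a ubiquitin ligase adaptor gene, read 148, 143, 130.4 and 120.3 in DMSO and 489, 529.6, 406 and 512 with GDC0941, a rise of 1.72 (SE 0.09). In all 3 genes the groups stood far apart, with no overlap. Others among the 20 largest rises were the sterol desaturase family gene FAXDC2 (1.92), the vesicle tethering gene TRAPPC6A (1.90), the protease inhibitor gene A2M (1.89), the kinase gene STK32A (1.84), the selenium carrier gene SELENOP (1.76), the purinergic receptor gene P2RX7 (1.75), ICA1 (1.72) and PCNX2 (1.69). FCGRT, the neonatal Fc receptor, rose by 1.59, KRTAP19-1, a hair keratin-associated gene, by 1.58, the reticulon gene RTN2 by 1.56 and the endosomal protein gene NSG1 by 1.54. The remaining 5, TRPM1, YPEL3, MLANA, ATP6V1G2 and TXNIP, are described with their gene groups.

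The 20 largest falls began with DHRS3. This gene, which reduces retinaldehyde to retinol, read 800.5, 775, 779.6 and 845 in DMSO and 59.8, 80.0, 63.8 and 63.4 with GDC0941. It fell by 3.31 (SE 0.13, adjusted p = 2.3e-21, limma), the largest difference among all genes tested. IL7R, the interleukin 7 receptor, fell by 1.94, from 88.6, 92.9, 83.1 and 84.4 to 16.6, 12.1, 6.80 and 8.90, the last of these being near the lower limit of detection. FDCSP, a secreted protein gene, fell by 1.89, as did the proteoglycan gene VCAN (-1.67), the metalloprotease gene ADAM19 (-1.61), the secreted inhibitor gene SERPIND1 (-1.58) and the potassium channel gene KCNG4 (-1.58). Further down stood CRISPLD2 (-1.50), GLIPR1 (-1.46), the secreted pattern recognition gene PTX3 (-1.44), the sulfatase gene SULF1 (-1.42), the sulfate donor enzyme gene PAPSS2 (-1.40), the B cell scaffold gene BANK1 (-1.39), the integrin gene ITGA4 (-1.38), INTS6L (-1.38), COXFA4L3 (-1.37) and the prostaglandin E synthase gene PTGES (-1.35). CXCL8, ASNS and CCL2 complete the 20 and are described with their gene groups.

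**Figure D1:**
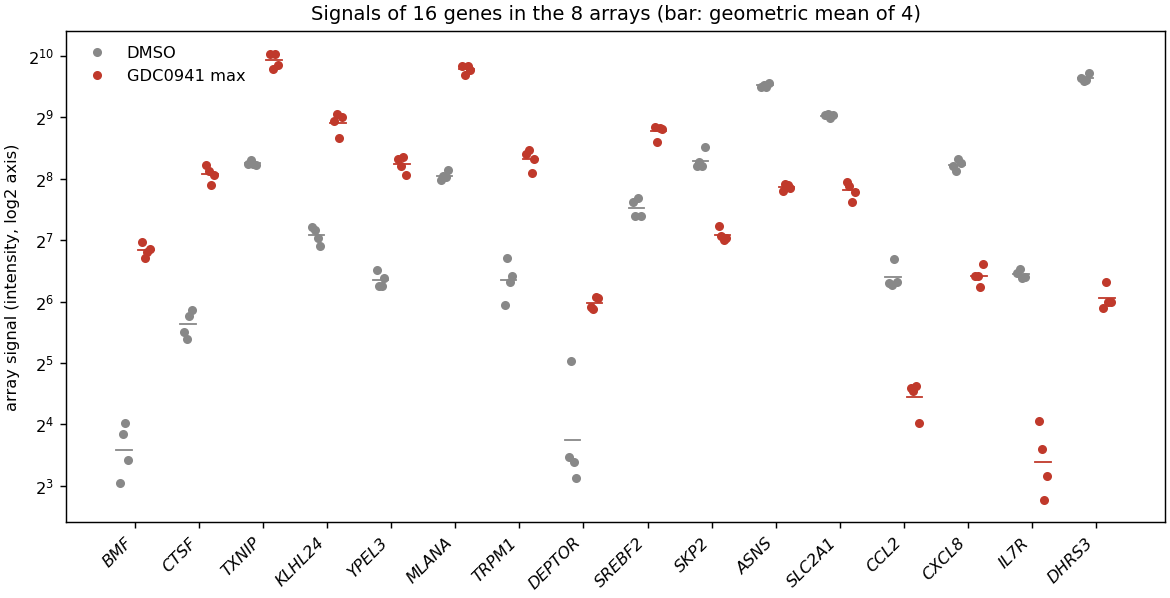
Array signal (intensity, log2 axis) of 16 genes in the 4 DMSO arrays (grey) and the 4 GDC0941 max arrays (red), each point 1 array and each bar the geometric mean of 4. In every gene drawn the groups do not overlap, and DEPTOR has 1 DMSO array above the other 3.

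The pathway's own genes were compared to find whether its parts moved with the inhibitor. Of the 28 measured genes of PI3K, AKT and mTOR, 8 rose and 4 fell, a share of 42.9% close to that of all genes, with a median of 0.04. The largest difference among them was that of DEPTOR, whose product binds and restrains mTOR. Its signals were 11, 32.7, 10.5 and 8.70 in DMSO and 60.1, 58.7, 67.4 and 66.4 with GDC0941, a rise of 1.38 (SE 0.15), and replicate 2 of DMSO stood above its 3 companions. TSC2, the brake on mTORC1, rose by 0.43 and the leukocyte-enriched catalytic subunit gene PIK3CD by 0.29. PIK3R1, the main regulatory subunit of PI3K, fell by 0.53 and PIK3CG fell by 0.57. The kinase genes AKT1 (0.01), AKT2 (-0.07), PDPK1 (-0.04) and MTOR (0.14) were not called. The number of core genes called higher was 5 in place of 8 without GDC0941 replicate 3, without DMSO replicate 1 or without DMSO replicate 2.

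Receptors that feed PI3K were examined next: 11 of 20 receptor tyrosine kinase and adaptor genes rose, 4 fell, and their median was 0.30. INSR, the insulin receptor, went from 60.6, 46.5, 55.9 and 47.7 to 120.1, 134, 147 and 119, a rise of 1.09 (SE 0.15). PDGFRA rose by 0.74, KIT, the stem cell factor receptor of melanocytes, by 0.62, IGF1R by 0.59 and the neuregulin receptor ERBB4 by 0.58. ERBB3, a receptor known to be raised by AKT inhibition, rose by 0.36, and the adaptor genes GAB1 by 0.50, GAB2 by 0.46 and IRS2 by 0.25. EPHA2, an ephrin receptor linked to invasive melanoma, fell by 0.52 and MET, the hepatocyte growth factor receptor, fell by 0.42. IRS1 (0.09) and AXL (0.11) were not called.

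The FOXO factors and their targets, taken as 1 list, rose together. Of 28 measured, 23 rose and 2 fell, with a median of 0.48 against 0.03 for all genes. The number lower was 1 without any 1 of the GDC0941 arrays or without DMSO replicate 2 or 3, and the call of SESN3 (-0.20) ended under 11 of 18 other settings. TXNIP, which binds thioredoxin and restrains glucose uptake, gave signals of 301, 317, 301 and 300.5 in DMSO and 1052, 886, 1049 and 927 with GDC0941, a rise of 1.63 (SE 0.06). YPEL3, a small protein gene linked to growth arrest, rose by 1.70, from 90.9, 76.5, 75.9 and 83.8 to 319.6, 296, 327 and 268. The 4 DMSO arrays of both genes agreed closely and lay well below every treated array. The muscle-type ubiquitin ligase genes TRIM63 and FBXO32 rose by 1.07 and 0.62, the repressor gene HBP1 by 0.82, the unconventional cyclin gene CCNG2 by 0.75 and the coregulator gene CITED2 by 0.75. Among the factors, FOXO4 stood higher by 0.68, FOXO1 by 0.66 and FOXO3 by 0.34. GADD45A, a stress and DNA damage response gene, fell by 0.61. Of 7 genes of the list of TXNIP and its arrestin-domain relatives, 4 rose and 1 fell. ARRDC4 and ARRDC2 rose by 0.57 and 0.46. ARRDC3 fell by 0.40, a call that ended without GDC0941 replicate 1 or 3 or DMSO replicate 1 or 2, and SESN2, a stress-induced inhibitor of mTORC1 that is also a target of ATF4, fell by 0.73. DDIT4, which encodes REDD1, stood at -0.15 and was not called.

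Promoter windows are shown here for FOXO targets that moved together. The core letters of the FOXO site, TGTTTAC, were searched on both strands from 250 bases before to 50 after each RefSeq start (GRCh38.p14). They were found for 6 of the 23 measured FOXO list genes with a listed promoter (26.1%), against 348 of 9780 tested genes (3.56%). The list was drawn up as FOXO factors and targets, so this share describes the list and not the treatment. Over all genes called higher the share was 4.82% and over those called lower 3.07%. BCL2L11, whose probe sets disagree in direction, also held a match upstream of its start and is not printed. In the windows below, taken upstream of the start in the direction of the gene, capitals mark the match or its reverse complement.
TXNIP: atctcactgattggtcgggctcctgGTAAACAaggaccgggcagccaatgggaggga
HBP1: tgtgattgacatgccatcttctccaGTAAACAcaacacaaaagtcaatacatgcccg
MXI1: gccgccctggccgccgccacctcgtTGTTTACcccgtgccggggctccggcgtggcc
They lie at chr1:145996672-145996728, minus strand, for TXNIP, chr7:107168805-107168861, plus strand, for HBP1, and chr10:110210055-110210111, plus strand, for MXI1, a repressor of MYC that rose by 0.45.

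Genes of the BCL2 family moved in both directions. Among 7 measured BH3-only genes, BMF and HRK rose, and PMAIP1, which encodes NOXA, fell by 0.80. HRK read 25.5, 32.1, 37.0 and 33.1 in DMSO and 108, 100.1, 113 and 97.0 with GDC0941, a rise of 1.33 with a wide error (SE 0.21, adjusted p = 2.3e-06, limma). BCL2L11, the FOXO target that encodes BIM, was called higher at 0.33 on the probe set used, but 3 other probe sets of the gene were called lower, from -0.43 to -0.40, so its direction is not settled here. BCL2, the founding survival gene, rose by 0.43, a call that ended when its probe sets were averaged. The effector genes BOK and BAX rose by 0.39 and 0.28, and the melanocyte-linked survival gene BCL2A1 by 0.25. MCL1, a short-lived survival protein gene, fell by 0.27 and the effector gene BAK1 fell by 0.34, while BCL2L1, which encodes BCL-XL, stood at -0.24 and was not called. The BCL2L11 call also ended without DMSO replicate 4 and in a fit of the 8 arrays alone.

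Genes of the dividing cell fell. In the list of mitosis, 50 of 58 measured genes fell and 1 was called higher, with a median of -0.47. BUB1, a spindle checkpoint kinase gene, read 446, 474, 454 and 490.2 in DMSO and 243, 246, 251 and 238 with GDC0941, a difference of -0.89 (SE 0.08). The kinesin gene KIF18A fell by 0.91, as did the cell cycle gene CDCA3 (-0.89), the kinetochore gene SPC25 (-0.87), the checkpoint kinase gene TTK (-0.82) and KIF23, needed for cytokinesis (-0.77). CENPF (-0.13) and PTTG1 (-0.11) were not called. The single member called higher, BUB3 at 0.18, had another probe set called lower at -0.44. None of the mitosis genes reached a 2-fold fall, so the list moved by many small differences of like size.

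Earlier phases of the cycle split. Among 25 genes of the G1 to S transition 8 fell and 3 rose, led by SKP2, which marks the inhibitor p27 for destruction. SKP2 went from 295, 308, 295 and 365 to 150.2, 134, 128 and 131, a difference of -1.12 (SE 0.11), without overlap. CDC25A, the phosphatase that frees CDK2, fell by 1.00, as did the repressors E2F7 (-0.69) and E2F8 (-0.67) and the cyclin genes CCND3 (-0.54) and CCNE2 (-0.45). The inhibitors CDKN1C (p57) and CDKN1B (p27, itself a FOXO target) rose by 0.46 and 0.31 and the pocket protein gene RBL2 by 0.44. CCND1, the cyclin most often tied to this pathway, stood at -0.15 and CDKN1A at 0.05, neither called. In DNA replication 24 of 50 genes fell and 2 rose, with a median of -0.20. The number higher was 1 without GDC0941 replicate 1, 3 or 4 or DMSO replicate 1 or 3, and 0 without DMSO replicate 2 or 4. The regulators of origin firing were among the falls: DBF4 fell by 0.86, as did CDC6 (-0.79), the checkpoint mediator CLSPN (-0.75), CDC45 (-0.72) and ORC6 (-0.68). The replicative helicase genes MCM2 (0.26), MCM3 (0.04), MCM4 (0.10), MCM6 (0.11) and MCM7 (0.12), and PCNA (-0.08), were not called. MCM5, of the same helicase, was called higher at 0.32, and POLD2 at 0.14.

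Tubulin genes fell with the mitotic ones, 11 of 15 measured, with a median of -0.31. TUBB2B read 580.0, 592, 569.5 and 472 in DMSO and 246, 320.3, 256 and 293 with GDC0941, a difference of -0.95 (SE 0.08). TUBE1, of the centriole, fell by 0.70, as did TUBB2A (-0.62), TUBB6 (-0.62), TUBA4A (-0.61) and TUBG1, which nucleates microtubules (-0.49). TUBA1A and TUBB4A were called higher at 0.33 and 0.27 with calls that did not hold in every fit. The first ended without GDC0941 replicate 2 or 3 or DMSO replicate 1, and the second without GDC0941 replicate 2, 3 or 4 or DMSO replicate 1, 3 or 4, with no filter on dim genes, with quantile normalization and in a fit of the 8 arrays alone. In DNA repair 8 of 18 genes fell, among them the nuclease gene EXO1 (-0.56) and the helicase gene BLM (-0.46), and the damage kinase gene ATM rose by 0.48. Histone genes showed no common direction, with 5 higher and 4 lower of 24, and their counts changed with single arrays: 2 were called higher without DMSO replicate 4, and 3 without DMSO replicate 1 or 3 or GDC0941 replicate 2, 3 or 4.

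Sterol genes rose as a block. In cholesterol synthesis 13 of 16 measured genes rose and 0 fell, with a median of 0.47. HMGCS1, which makes the first committed intermediate, gave 754, 852, 859 and 743 in DMSO and 1461, 1510.0, 1601 and 1512 with GDC0941, a rise of 0.91 (SE 0.05). TM7SF2, a sterol reductase gene, read 70.9, 59.4, 61.7 and 60.2 in DMSO and 186, 212, 199.5 and 215 with GDC0941, the largest rise of the list at 1.47 (SE 0.11). The groups stood apart in both genes. ACAT2, which condenses acetyl-CoA, rose by 0.29, SQLE, which oxidises squalene, by 0.78, LSS, which closes the sterol ring, by 0.71, MSMO1 by 0.65, HSD17B7 by 0.60, the mevalonate pathway genes PMVK by 0.55 and MVD by 0.50, and DHCR7, the last enzyme of the route, by 0.44. IDI1 (0.16), EBP (0.13) and MVK (-0.00) were not called. Among regulators of sterol supply 6 of 10 rose. SREBF2, the factor that drives the pathway, read 198, 168, 206 and 168 in DMSO and 461, 389, 453 and 449 with GDC0941, a rise of 1.18. MYLIP, which targets the LDL receptor for destruction, rose by 0.60, the oxysterol receptor NR1H3 by 0.56, the sterol carrier STARD4 by 0.33 and INSIG1, which holds the SREBP proteins in the ER, by 0.33.

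SREBF2 is the only measured gene of both sterol lists whose promoter window held the sterol response element as searched, TCACNCCAC on either strand, which 1.39% of tested genes hold. No match says only that these letters are not in that window. The SREBF2 stretch lies at chr22:41832947-41833005, plus strand of GRCh38.p14, with the match in capitals.
SREBF2: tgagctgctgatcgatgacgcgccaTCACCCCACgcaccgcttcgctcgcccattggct
Fatty acid genes divided, 7 of 19 higher and 3 lower with a median of 0.02. The triglyceride enzymes DGAT2 and LPIN1 rose by 0.71 and 0.69, ACSS2, which activates acetate, by 0.65, and FASN and SCD by 0.37 and 0.38. ME1, the malic enzyme that supplies NADPH, fell by 1.01 and ACSL1, which activates long-chain fatty acids, fell by 0.55. The remaining member called lower was SREBF1, opposite in direction to SREBF2.

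Genes of glucose use were lower. Of 21 glycolysis genes 9 fell and 0 rose, with a median of -0.15. The glucose transporter gene SLC2A1 carried the largest of these falls, from 524, 531, 506 and 528 to 247, 236, 197 and 219.5, or -1.16 (SE 0.14). PDK1, a pyruvate dehydrogenase kinase gene, fell by 0.83 and ALDOC fell by 0.44. HK2 was called lower at -0.43, with 2 other probe sets called higher, from 0.43 to 0.84, so its direction is not settled here. Among 12 hypoxia genes VEGFA fell by 0.97, as did P4HA2 (-0.88), BNIP3 (-0.62) and P4HA1 (-0.50), whereas NDRG1 rose by 0.42. HIF1A itself stood at -0.03 and was not called.

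Targets of ATF4, the factor that supplies amino acids and that mTORC1 is known to sustain, fell: 23 of 29 measured and 0 higher, with a median of -0.41. ASNS, asparagine synthetase, gave 725, 739, 725 and 757 in DMSO and 224, 240.1, 238 and 232 with GDC0941, a difference of -1.59 (SE 0.10). CHAC1, which degrades glutathione, fell by 1.11, as did the cystine transporter SLC7A11 (-0.98), ATF5 (-0.85), MTHFD2 of the mitochondrial folate cycle (-0.81), STC2 (-0.74) and CBS (-0.68). Among aminoacyl-tRNA synthetases 8 of 17 fell and 0 rose, with YARS1 at -0.59, WARS1 at -0.59 and GARS1 at -0.53. Chaperones of the endoplasmic reticulum followed, 13 of 24 lower and 1 higher. ERO1B, which forms disulfide bonds, fell by 0.80, as did XBP1, the factor of the unfolded protein response (-0.74), HYOU1 (-0.72) and CALR (-0.67), while DNAJB9 rose by 0.36. In the cytosol 7 of 14 heat shock genes fell, HSPA4L (-0.59) and DNAJB4 (-0.52) among them, and CRYAB, the small heat shock protein alpha-B crystallin, rose by 1.13.

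The machinery of protein synthesis gave no common direction. In ribosome biogenesis 13 of 36 genes fell and 2 rose, with PNO1 at -0.79 and UTP15, of the small subunit processome, at -0.48. Ribosomal proteins lay in a narrow band, 13 of 51 called higher and 0 lower, with a median of 0.14. That count rested on single arrays: it was 3 without GDC0941 replicate 3 and 28 without DMSO replicate 3. EEF1A1, the elongation factor, rose by 0.72, EEF2K, which blocks elongation, by 0.32 and the cap-binding helper EIF4B by 0.30, and EIF2B3 fell by 0.47. MYC, a driver of ribosome production, read 106, 117, 112 and 121 in DMSO and 290.4, 265, 314 and 316 with GDC0941. It rose by 1.26 (SE 0.13), all treated arrays above all controls, and its antagonist MXI1 rose by 0.45. Proteasome genes were lower, 12 of 30 with 0 higher, with PSMD11 at -0.65 and PSMD12 at -0.57. Respiratory chain genes mostly stayed near DMSO, with 9 higher and 5 lower of 66 and a median of 0.05, and the higher count was 2 without GDC0941 replicate 3 or without DMSO replicate 2.

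Lysosome genes rose. Of 49 measured, 29 rose and 3 fell, with a median of 0.21. After CTSF the largest rise was that of GRN, the progranulin precursor that lysosomes process, from 159, 156, 140.3 and 169.9 to 361, 369.5, 327 and 364, or 1.11 (SE 0.08). GAA, which degrades glycogen, rose by 0.86, the proteases CTSH, TPP1 and CTSD by 0.80, 0.79 and 0.73, arylsulfatase ARSA by 0.71 and the protease CTSK by 0.68. Of the subunits of the proton pump that acidifies the organelle, ATP6V1G2, outside the list and among the 20 largest rises of all genes, went from 39.7, 45.2, 34.4 and 43.3 to 171, 174, 138 and 157, or 1.63 (SE 0.12). ATP6V1A (0.07) and ATP6V0D1 (0.01) were not called. GLA, alpha-galactosidase, fell by 0.76, as did CTSL (-0.37) and TFE3 (-0.27).

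In autophagy 14 of 36 genes rose and 5 fell. MAP1LC3A, an LC3 protein that coats the growing membrane, read 29.1, 22.7, 21.9 and 12.8 in DMSO and 104, 88.8, 83.4 and 82.9 with GDC0941, a rise of 1.51 (SE 0.13). The nuclear activators TP53INP1 and TP53INP2 rose by 0.73 and 0.73, ATG14 by 0.59 and the receptors NBR1 and OPTN by 0.59 and 0.49. ATG5 fell by 0.57, as did ATG4A (-0.46) and ATG3 (-0.37). Without GDC0941 replicate 2 the number lower was 3 in place of 5. SQSTM1 (0.09) and ULK1 (0.25) were not called.

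The 8 letters TCACGTGA are the palindrome that TFEB, TFE3 and MITF bind. They were found in the promoter window of 7 of the 33 measured lysosome genes with a listed promoter (21.2%). The share was 231 of 9780 tested genes (2.36%), 3.08% of the genes called higher and 1.48% of those called lower. The list was drawn up as lysosome genes, so its share describes the list and not the treatment. The palindrome contains the general E-box CACGTG, which 13.1% of tested genes hold. The windows of 3 genes that rose are shown with the palindrome in capitals, from GRCh38.p14, in the direction of the gene.
CTSA: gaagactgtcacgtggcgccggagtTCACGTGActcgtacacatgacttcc
GAA: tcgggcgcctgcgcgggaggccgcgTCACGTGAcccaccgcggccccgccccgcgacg
GALNS: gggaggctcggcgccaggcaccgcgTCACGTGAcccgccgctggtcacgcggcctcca
They lie at chr20:45891284-45891334, plus strand, for CTSA, chr17:80101479-80101536, plus strand, for GAA, and chr16:88857090-88857147, minus strand, for GALNS. CTSA and GALNS, of the carboxypeptidase and sulfatase families, rose by 0.53 and 0.37. MCOLN1 and ATP6V0D1 hold the palindrome and were not called, at -0.09 and 0.01.

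Pigment genes rose in nearly the whole list, 13 of 14 measured and 0 lower, with a median of 0.62. MLANA, a melanosome antigen gene, read 254, 263, 262 and 284 in DMSO and 914, 822, 911 and 876 with GDC0941, a rise of 1.67 (SE 0.07). The cation channel gene TRPM1, whose intron carries a melanocytic microRNA, went from 61.5, 105, 79.6 and 85.2 to 340.2, 354, 274 and 320.0, or 1.79. Both rose in every treated array above every control. MLPH, which tethers melanosomes to myosin, rose by 1.53, TYR, the enzyme that starts melanin synthesis, by 1.14, the melanosomal transporter gene OCA2 by 1.13, the fibril protein PMEL by 0.77 and TYRP1 by 0.67. RAB27A was called higher at 0.48, and another of its probe sets lower at -0.20. Among the factors that act on these genes MITF rose by 0.28 and SNAI2 by 0.49, while SOX10 (0.16) and PAX3 (0.25) were not called, and SOX2, a stem cell factor, fell by 0.89.

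Genes that mark the dedifferentiated, invasive state of melanoma did not move as a body: 2 of 22 rose and 8 fell, with a median of -0.02. NGFR, the neural crest receptor, fell by 1.15, from 169, 154, 155 and 162 to 72.2, 76.9, 49.2 and 57.1. LOXL2, which crosslinks collagen, fell by 1.01, as did TGFBI (-0.67) and IL6 (-0.67), while MMP2 rose by 0.62 and FN1, fibronectin, by 0.31. AXL (0.11), VIM (0.09), CDH2 (0.01) and THBS1 (-0.27) were not called, nor were the targets of YAP and TEAD, CCN1 (0.29) and CCN2 (0.29). CCN1 was called higher in the fit without GDC0941 replicate 3 (0.37) and CCN2 in that without DMSO replicate 3 (0.36). Of 17 genes of YAP and TEAD, 4 were higher and 3 lower, and F3, tissue factor, fell by 0.85. This split turned to 3 higher and 6 lower when all probe sets of a gene were averaged, with WWTR1 (-0.12) and AMOTL1 (-0.30) among those that turned.

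Immediate early genes and outputs of MAPK signalling were mixed. EGR1, a zinc finger factor, gave 344, 355, 369 and 294 in DMSO and 658, 627, 751 and 737 with GDC0941, a rise of 0.99 (SE 0.08). The orphan receptors NR4A2 and NR4A3 rose by 1.02 and 0.83 and SPRY4, a feedback inhibitor, by 0.35. DUSP6 (-0.13), DUSP4 (0.06), FOSL1 (0.03) and JUN (0.00) were not called. The growth factor and cytokine genes LIF (-0.83), HBEGF (-0.79) and TGFA (-0.73) fell, and the pluripotency factor KLF4 fell by 0.73. All 4 ID genes, inhibitors of differentiation that BMP signalling induces, rose: ID2 by 0.82, ID3 by 0.61, ID1 by 0.38 and ID4 by 0.34. TGFB3 fell by 0.73 and INHBA fell by 0.51.

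Genes of the list of chemokines, cytokines and NF-kB were lower, 13 of 20 against 2 higher, with the lowest median of the lists in the plot of gene lists, -0.64. With the filter at the 60th percentile, which leaves out the dimmer members, 2 of the 5 still tested were lower and 2 higher. CXCL8, the neutrophil attractant interleukin 8, read 295, 278, 320.4 and 306 in DMSO and 85.1, 85.3, 75.7 and 97.8 with GDC0941, a difference of -1.63 (SE 0.19). CCL2, the monocyte attractant, went from 79.1, 76.7, 103 and 79.9 to 24.2, 23.2, 24.6 and 16.2, a difference of -1.40. In both genes the lowest control lay more than 2-fold above the highest treated array. IL32 fell by 1.15, as did CXCL1 (-1.08), PTGS2, the inducible cyclooxygenase (-0.80), CCL20 (-0.73) and IL11 (-0.68). IL24 and the NF-kB inhibitor TNFAIP3 rose by 0.77 and 0.59. The NF-kB subunit genes NFKB1 (-0.04), NFKB2 (-0.16) and RELB (-0.15) were not called. Interferon-stimulated genes split, 11 higher and 5 lower of 35, RSAD2 at 0.94 and GBP1 at -0.89 being the ends. In antigen presentation 9 of 23 rose and 1 fell, with the class I regulator NLRC5 at 0.67, HLA-B at 0.31 and TAP2 at -0.47.

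CXCL8 and IL11 are the 2 of 16 measured genes of the chemokine, cytokine and NF-kB list with a listed promoter (12.5%) whose window held the AP-1 letters. These letters, TGACTCA on either strand, are held by 4.74% of tested genes. The CXCL8 stretch lies at chr4:73740407-73740463, plus strand of GRCh38.p14 and is printed with the match in capitals as that of the chemokine with the largest fall.
CXCL8: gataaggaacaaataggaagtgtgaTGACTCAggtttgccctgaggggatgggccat

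Adhesion, retinoid and clock genes moved both ways. Of 22 integrin and laminin genes 6 rose and 6 fell, the hemidesmosome integrin ITGB4 at 1.09 and ITGA10 at 0.80 at one end and ITGA4 at -1.38 and the vitronectin receptor chain ITGB3 at -0.83 at the other. Beside DHRS3, the retinoid list held falls of TGM2, a transglutaminase that retinoic acid induces (-1.07), of RDH10 (-0.60) and of ALDH1A1 (-0.52), with rises of RXRB (0.56) and RXRA (0.34). In the circadian clock the activator genes BMAL1 (-0.88) and CLOCK (-0.47) and the repressor gene NFIL3 (-0.82) fell, while PER3, NR1D2 and CRY2 rose by 0.70, 0.51 and 0.41. CRY1, unlike CRY2, was called lower, and of 13 measured clock genes 5 were higher and 5 lower. Of 14 measured genes of SRF and the actin cytoskeleton 4 fell and 1 was called higher, SRF itself at 0.18, a call that ended without DMSO replicate 3 and with the mean over all probe sets. TAGLN, of smooth muscle, fell by 0.77, as did MYL9 (-0.57) and FHL2 (-0.54), with ACTB at 0.07 not called. Targets of p53 gave 5 higher and 6 lower of 19, CYFIP2 rising by 0.91 and the death receptor gene FAS at -0.93, with CDKN1A (0.05) and MDM2 (-0.16) not called.

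**Figure D2:**
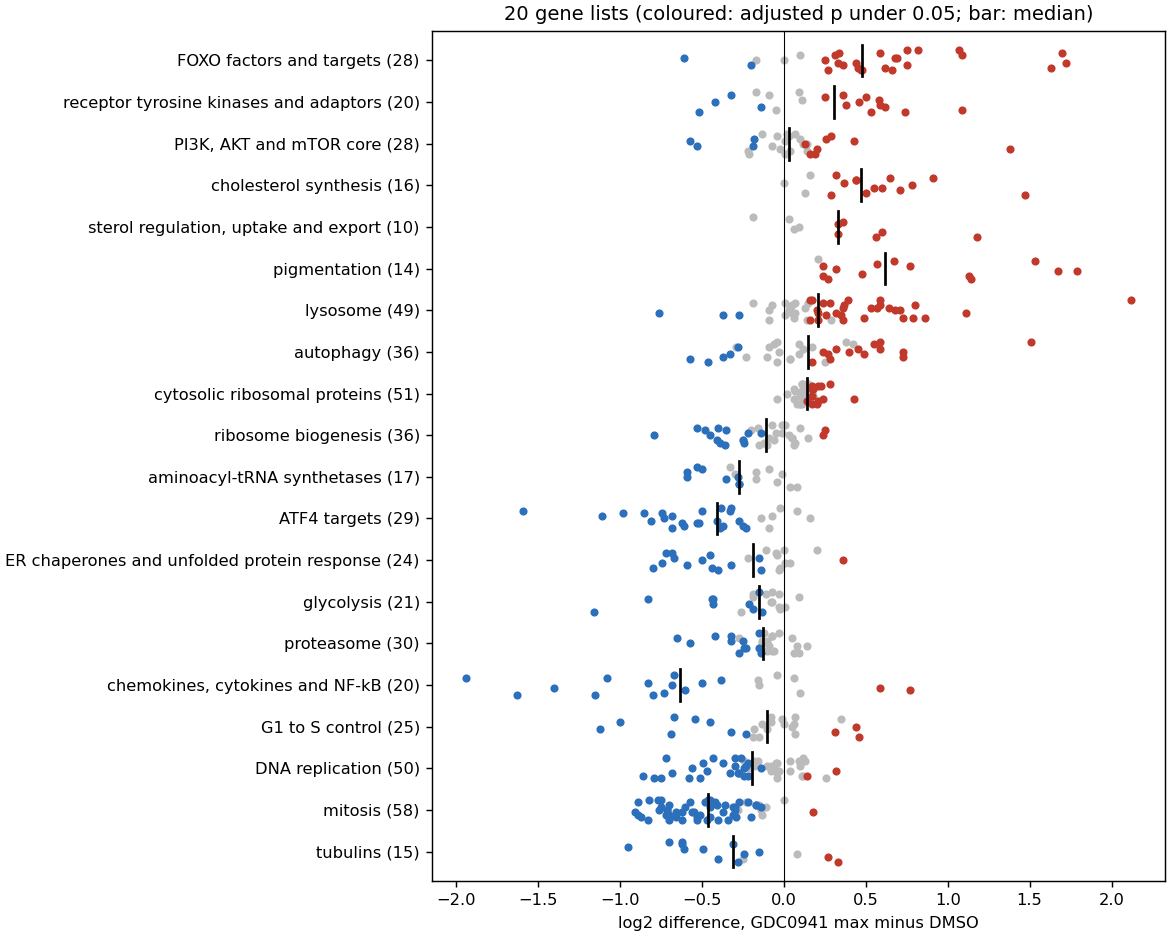
Log2 difference of GDC0941 max minus DMSO for each measured member of 20 gene lists (number measured in brackets), coloured where the adjusted p was under 0.05 (red higher, blue lower) and grey otherwise, with a bar at the list median. Mitosis, ATF4 targets and the list of chemokines, cytokines and NF-kB lie mostly left of 0. FOXO factors and targets, cholesterol synthesis, pigmentation and lysosome lie mostly right of it.

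GDC0941 max was then set against GDC0941 IC90, its next lower level, to find what the last step added. In that step 1248 of 11865 genes (10.5%) differed, 644 (5.43%) higher and 604 (5.09%) lower at max, only 4 (0.0337%) by 2-fold or more. BMF stood at 39.9, 54.9, 65.8 and 48.4 at IC90, between DMSO and max, and rose by a further 0.95 (SE 0.12, adjusted p = 9.4e-07, limma). TXNIP rose by a further 0.72, CTSF by 0.81 and YPEL3 by 0.55, and in all 10 of 28 FOXO factors and targets were higher at max and 2 lower. Downward, KCNG4 went from 101, 101, 95.3 and 111 at IC90 to 42.4, 39.7, 41.5 and 36.7 at max, a difference of -1.07. VCAN (-0.98), the lysolipid transporter gene MFSD2A (-0.97) and ADAM19 (-0.91) fell further too. For ENPP2, a lysophospholipase gene, the difference from DMSO was -0.10 at IC90 and -1.13 at max, and for SLITRK6, a neuronal adhesion gene, 0.01 and 0.97. For the deacetylase gene HDAC9 they were 0.02 and 0.96, and for the extracellular protein gene MAMDC2 0.14 and -0.84.

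Another group of genes turned back. CCN1, a matrix protein gene and target of YAP and TEAD, read 458, 443, 418 and 447 in DMSO, 178, 186, 206 and 220.0 at IC50, 217, 198, 225 and 202 at IC90 and 527, 549.6, 453 and 659 at max. It was thus low at both lower levels, with no overlap with DMSO, and rose by 1.30 (SE 0.12, adjusted p = 1.6e-09, limma) in the step to max. CCN2, connective tissue growth factor, read 102, 151, 156 and 105 at IC90 and 301, 335, 304 and 346 at max, a step of 1.24, and DKK1, the Wnt antagonist, 549, 472, 516 and 525 and 879.8, 1026, 873 and 986, a step of 0.85. For JUN the values were 35.7, 33.2, 57.0 and 55.9 at IC90 and 84.8, 98.1, 76.8 and 72.7 at max, a step of 0.71, which brought the gene from -0.71 against DMSO to 0.00. Of 22 genes of the dedifferentiated state 7 were higher and 0 lower in the step, and of 17 YAP and TEAD genes 7 and 0, with CCN1 and CCN2 in both lists. The dedifferentiation list had 12 members lower than DMSO and 1 higher at IC90, with a median of -0.41, against 8 and 2 at max. Mitosis went the other way, with 16 of 58 genes lower in the step and 0 higher, among them CENPA (-0.48) and CDCA8 (-0.40). Further falls came in DNA replication (11 of 50), tubulins (6 of 15) and chaperones of the endoplasmic reticulum (8 of 24), with SKP2 at -0.64, TUBB2B at -0.66 and CALR at -0.57. The step had 807 genes called without GDC0941 IC90 replicate 4, and 2199 without 1 degraded array of another group.

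**Figure D3:**
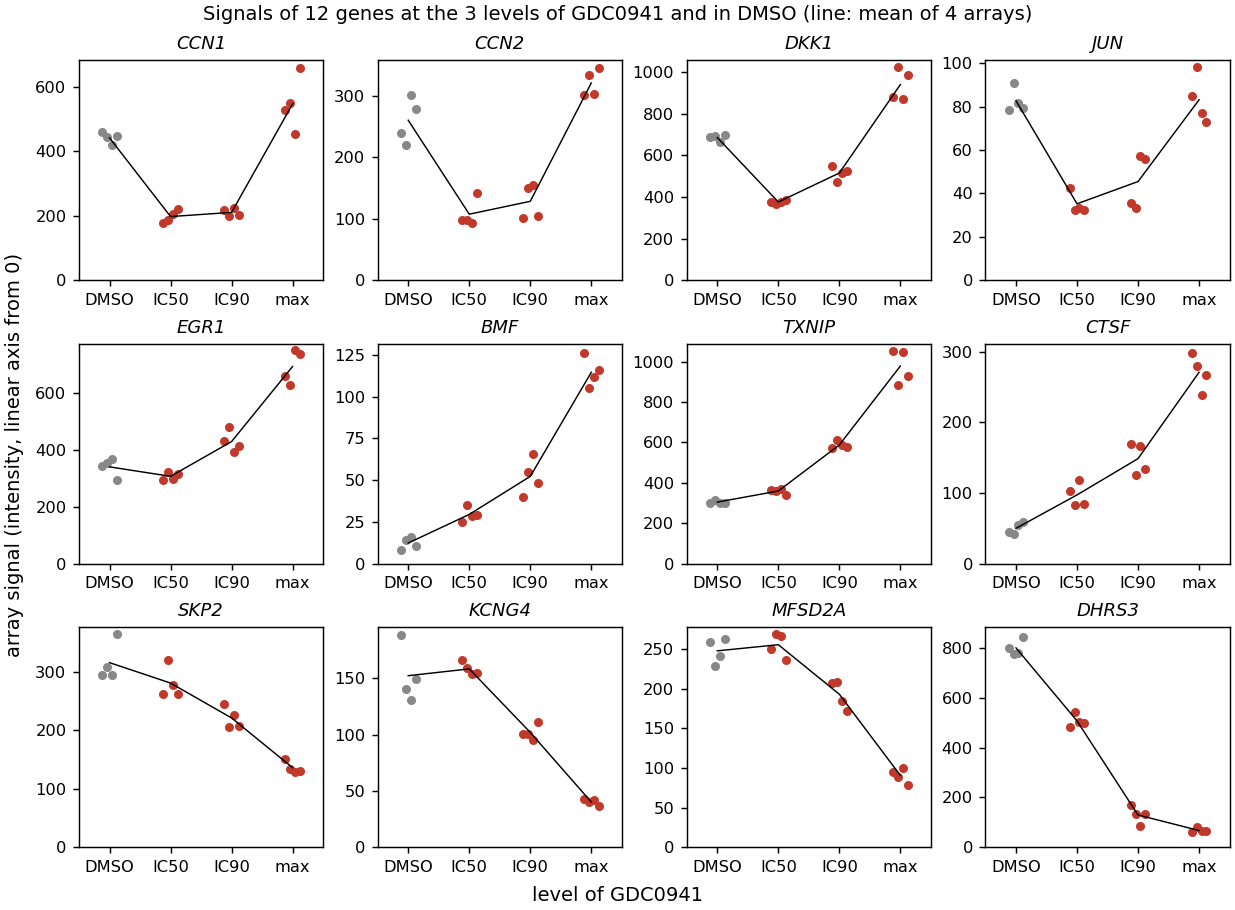
Array signal (intensity, linear axis from 0) of 12 genes in DMSO (grey) and at the 3 levels of GDC0941 (red), each point 1 array and the line joining means of 4 arrays; the molar spacing of the levels is not known. CCN1, CCN2, DKK1 and JUN are low at IC50 and IC90 and back near or above DMSO at max, while BMF, TXNIP and CTSF climb and SKP2, MFSD2A and DHRS3 are lowest at max.

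The highest levels of the 3 compounds were set side by side to find what GDC0941 max showed that the others did not. Their molar doses are unknown and need not match, so a difference here is one between treatments as given. BEZ235 (dactolisib) is an imidazoquinoline that inhibits mTOR as well as PI3K, and GDC0941 a thienopyrimidine aimed at PI3K. Against BEZ235 max 4346 genes (36.6%) differed, 2124 (17.9%) higher and 2222 (18.7%) lower with GDC0941. Sterol genes set the treatments apart: 14 of 16 cholesterol genes were higher with GDC0941 and 0 lower. HMGCS1 read 1461, 1510.0, 1601 and 1512 with GDC0941 and 407, 416, 384 and 412 with BEZ235, a difference of 1.87 (SE 0.05, adjusted p = 9.0e-26, limma), with DMSO between the 2. ACAT2 differed by 1.91, the sterol carrier STARD4 by 1.82 and 10 of 19 fatty acid genes were higher, 1 lower. PIK3R3, a regulatory subunit of PI3K, read 345, 286, 234 and 231 with GDC0941 and 45.2, 49.7, 35.2 and 29.4 with BEZ235, a difference of 2.37, and did not differ detectably from DMSO under GDC0941 (-0.22, adjusted p = 0.248, limma). SESN3 differed by 1.90 and the protocadherin gene PCDH7 by 1.87. Chaperones of the endoplasmic reticulum were higher with GDC0941 in 14 of 24 and lower in 1, heat shock genes in 8 of 14 and 0.

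In the other direction, IL24, a cytokine of the interleukin 10 family, read 199, 196, 229.5 and 203 with GDC0941 and 779, 686, 731 and 736 with BEZ235, a difference of -1.75. The reductase gene DHRS2 differed by -1.74, the proteoglycan gene BCAN by -1.42 and the receptor gene ANXA2R by -1.39. DHRS3 differed by -1.60, being -1.71 from DMSO under BEZ235. Antigen presentation genes were lower with GDC0941 in 11 of 23 and higher in 0, interferon-stimulated genes in 14 and 1 of 35, and genes of MAPK output in 12 and 2 of 21. JUN was 1.52 higher with GDC0941 and FOSL1 differed by -0.55. Mitosis genes, lower than DMSO under both, were called lower with GDC0941 in 12 of 58 and higher in 3, the first close to the share of all genes (18.7%).

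BKM120 (buparlisib), a morpholino pyrimidine, also targets class I PI3K, and its highest level is labelled IC90 (max). Against it 3973 genes (33.5%) differed, 2489 (21%) higher and 1484 (12.5%) lower with GDC0941. Of the 141 genes (1.19%) that differed by 2-fold or more, 110 (0.927%) were lower and 31 (0.261%) higher. Mitosis made the clearest contrast of any list: 57 of 58 genes were lower with GDC0941 than with BKM120 and 1 higher, with a median of -0.97. KIF18A differed by -1.65, GTSE1, a microtubule-bound protein gene, by -1.57 and the centromere histone CENPA by -1.55. BUB1 read 243, 246, 251 and 238 with GDC0941 and 657, 671, 674 and 689.6 with BKM120, against 446, 474, 454 and 490.2 in DMSO, so that the treatments lay on opposite sides of the control. DHRS3, at 771, 832, 823 and 830.3 with BKM120, differed by -3.33 (SE 0.13) and was at the DMSO level there (0.03).

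Genes that stood far above DMSO with BKM120, NT5DC4 by 2.10 and EBLN2 by 2.07, were lower with GDC0941. NT5DC4 differed by -2.49, EBLN2 by -2.45, SNORA21 by -2.13, RAB11FIP3 by -2.07 and EIF3C by -1.98, while under GDC0941 they stood between -0.46 and -0.36 from DMSO. Genes of chemokines, cytokines and NF-kB were lower in 15 of 20 and higher in 2, with IL32 at -1.31 and CXCL8 at -1.13. Higher with GDC0941 were the kinase gene STK32A, at 159, 150.3, 155 and 148 against 51.6, 38.8, 43.8 and 32.1, a difference of 1.56, the transport gene RAB6B (1.43), BMF (1.40), HRK (1.36), the islet autoantigen gene ICA1 (1.36) and OLIG1, a neural lineage factor (1.30). FOXO factors and targets were higher in 17 of 28 and lower in 2, cholesterol genes in 12 of 16 and 0, pigment genes in 10 of 14 and 0, and lysosome genes in 17 of 49 and 1. INSR differed by 0.89, MYC by 1.15, TRPM1 by 0.82 and OCA2 by 0.76.

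Set side by side, and with DMSO arrays in common, the list medians from DMSO were 0.47 for cholesterol synthesis with GDC0941 max, -0.33 with BEZ235 max and 0.01 with BKM120. For mitosis they were -0.47, -0.42 and 0.52, for chemokines, cytokines and NF-kB -0.64, -0.08 and -0.02, and for antigen presentation 0.18, 0.44 and 0.25. Those of ATF4 targets, -0.41, -0.45 and -0.52, lay close together. At lower BKM120 levels the mean log2 signal of cholesterol genes was 8.68 to 8.79 (IC30) and 8.68 to 8.73 (IC50). It was 8.36 to 8.37 in DMSO and 8.85 to 8.95 with GDC0941 max. For mitosis these groups gave 9.08 to 9.09, 9.07 to 9.11, 9.23 to 9.25 and 8.73 to 8.79. For chemokines, cytokines and NF-kB they gave 6.37 to 6.48, 6.37 to 6.45, 6.88 to 6.97 and 6.31 to 6.40. In these lists lower BKM120 levels lay on the GDC0941 side of DMSO.

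**Figure D4:**
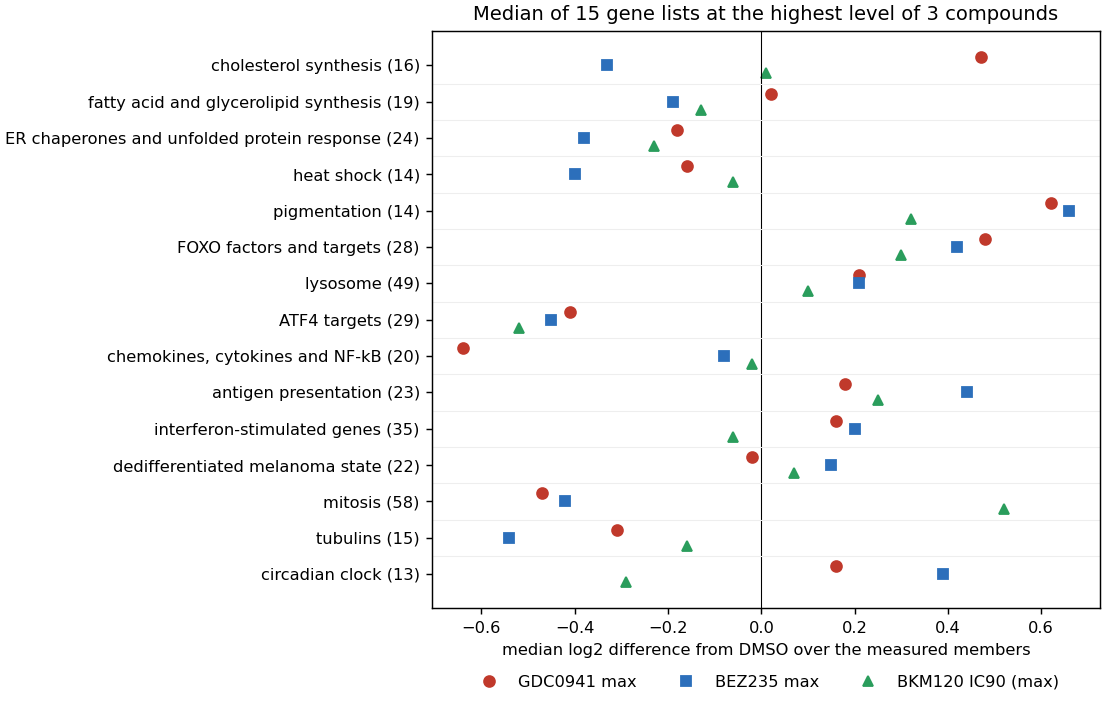
Median log2 difference from DMSO over the measured members (number in brackets) of 15 gene lists, for GDC0941 max (red circles), BEZ235 max (blue squares) and BKM120 IC90 (max) (green triangles), all against the same 4 DMSO arrays. At these highest levels the treatments part most on mitosis, where BKM120 stands at 0.52, and on cholesterol synthesis, where GDC0941 stands at 0.47. Lower levels of BKM120 are not drawn.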

How the data were processed

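Total RNA of A2058 cells was amplified from 50 ng and hybridised to 1-colour oligonucleotide arrays, per the labels' protocols. The authors deposited linear intensity per probe set, from MAS5 of unstated version, per the submitters' processing notes. After trimming 2% at each end, every array had a mean of 150, so signals are relative within an array, and 4 arrays per group limit the precision. Of 54675 probe sets, 41091 carried 1 gene symbol (19775 genes), 1801 several and 11721 none, and 62 were controls. A gene was read on its brightest probe set (mean log2 over 40 arrays), passing over names ending _x_at unless it had no other. Genes under the 40th percentile were left out. Other probe sets of a gene can disagree: of 2152 such probe sets called beside a called gene, 179 went the other way, and 14 of 562 called list members had one.

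Values were fitted as log2(signal + 16) with limma 3.58.1 in R 4.3.3, with a mean for each of 10 groups over 40 arrays (30 residual degrees of freedom), a mean-dependent variance trend and Benjamini-Hochberg adjustment within each of 4 comparisons, and the fit was tested on simulated data. Intervals are 95%. The members and the 47 gene lists were chosen with earlier results of these data known, so list counts are descriptions. Genes named were drawn by rank from the 20 largest differences in each direction among called genes without overlap between groups, up to 8 called members per list and direction, members of lists of up to 20 measured, uncalled members as examples, and the 6 largest in each direction of the other comparisons. FOXO1, FOXO3, FOXO4, FBXO32, CENPA, GTSE1, CTSA and GALNS were named after their values were seen. Promoters came from RefSeq (GRCh38.p14), with a window for 9780 of the genes tested, any of several starts counting. Alternatives were the pseudocount (1 or 64), the filter (none or the 60th percentile), the mean over probe sets, quantile normalization, fits without the trend, of 8 arrays or of 39, a replicate block, and each replicate left out.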

Additional observations from a re-analysis of the deposited data

Results flagged for a closer look

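In 6 of 72 groups of 4 arrays whose values are given above, 1 array stood apart from its companions by Dixon's criterion for the gap over the range, and chance flags about 1 group in 20. DEPTOR read 32.7 in DMSO replicate 2 against 8.70 to 11 in the others. TXNIP read 316.6 in the same array against 300.5 to 301.0, a small gap between values that lie close together. CCL2 read 102.9 in DMSO replicate 3 against 76.7 to 79.9, and 16.2 in GDC0941 replicate 4 against 23.2 to 24.6. SREBF2 read 388.9 in GDC0941 replicate 2 against 449.1 to 460.6. TUBB2B read 471.5 in DMSO replicate 4 against 569.5 to 591.8.

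Probe sets outside the gene-level comparison also differed between GDC0941 max and DMSO (limma, adjusted p under 0.05). Of 2874 bright probe sets with no gene symbol in the annotation used, 522 were higher and 346 lower (30.2%), 28 and 6 of them by at least 2-fold. Of 1103 that carry several symbols, 236 were higher and 154 lower (35.4%), 5 and 4 of them by at least 2-fold.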

How the results depend on the processing

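The number of genes called for GDC0941 max against DMSO was 5204, and 4726 to 4917 with 1 replicate of either group left out. The genes called higher were 2725 to 2859 and those called lower 1956 to 2059 in those fits, and 197 to 226 were at least 2-fold. A fit of the 8 arrays alone called 5517 genes. The 39 arrays without replicate 3 of BEZ235 IC50, whose ACTB 3-prime to 5-prime ratio was 27.18, gave 6146, of them 3521 higher and 2625 lower. The higher calls came to 1913 with the filter at the 60th percentile, which tests 7910 genes. Those of at least 2-fold came to 93 with that filter, 442 with a pseudocount of 1, 73 with a pseudocount of 64 and 119 with the mean over all probe sets of a gene. The step from GDC0941 IC90 to max had 1248 genes called, 807 to 1143 with 1 replicate left out (807 without IC90 replicate 4), and 2199 in the 39 arrays without the degraded replicate 3 of BEZ235 IC50, which widens the shared estimate of the spread. The comparison with BKM120 max had 2592 genes called with the filter at the 60th percentile, and 3469 to 3663 with 1 replicate left out. That with BEZ235 max had 3878 to 4139. In the 39 arrays the comparison with BKM120 max had 4937 genes called and that with BEZ235 max 5440.

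Same-numbered replicates of GDC0941 max and DMSO deviated together with correlations of -0.031, 0.305, 0.199 and 0.014, and replicates 1 and 4 correlated best with another number, so the numbers were not taken to pair the arrays. With a replicate block the fit called 5112 genes against DMSO, 2971 higher and 2141 lower, 1171 in the step from IC90, 4312 against BEZ235 max and 3924 against BKM120 max.

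Of 322 named genes followed through the settings, 273 were called in the comparison with DMSO. Of these, 258 kept call and direction under each of the 18 other settings in which they were tested. A setting that left a gene out, as the filter at the 60th percentile does for dimmer genes, did not count against it. Among the named genes not called, 21 were called under at least 1 of those settings, so a missing call does not show that a gene was unchanged. With the mean over all probe sets of a gene the direction turned for AMOTL1 (-0.30), BCL2L11 (-0.22), BUB3 (-0.10), HK2 (0.28) and WWTR1 (-0.12), whose probe sets disagree. Of the 47 lists, 6 had their majority direction turned under some setting: Wnt and Notch genes, YAP and TEAD genes, clustered histones, collagens, the respiratory chain and translation factors. The filter at the 60th percentile, which tests fewer members, moved 25 of the 94 counts of list members called higher or lower by over 1.5 times, and each left-out replicate moved 5 to 12. Dim genes limit what can be seen, since the lowest mean signal tested was 13.6.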
